A study of Macaca mulatta with 6 samples.

Results

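STARD3, STARD4, OSBP and OSBPL2 encode proteins that move cholesterol between membranes inside the cell. They were followed through all probe sets that the platform annotation names for these 4 genes, 9 of the 52766 probe sets tested. There was 1 probe set for STARD3, 2 for STARD4, 4 for OSBP and 2 for OSBPL2. The samples were luteal cells of rhesus macaques, dispersed from the corpus luteum 12 days after the surge of luteinizing hormone and plated without serum on fibronectin. From plating on, they were kept for 24 h with 1 µM T0901317, a man-made ligand that activates the liver X receptors (LXRs), or with 0.1% DMSO, the vehicle. Each group had 3 arrays, and the design text describes the biological replicates as paired. The labels do not say whether a pair shares 1 animal, nor whether the T0901317 cultures also held DMSO. P-values therefore measure the spread between these pairs, which may be technical, and not a spread known to be between animals. The limma fit also drew each variance partly from other probe sets, so its SEs, intervals and p-values do not rest on 3 pairs alone. Fits that left out 1 replicate held 2 pairs and leaned on other probe sets still more.

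Cholesterol cannot cross water unaided, so cells pass it between organelles with proteins that hold a single sterol molecule in a pocket, often where membranes lie close together. STARD3 and STARD4 carry the START domain, the fold first known from STAR, which brings cholesterol to mitochondria for steroid synthesis. OSBP and OSBPL2 (also called ORP2) carry the sterol-binding domain of the oxysterol-binding proteins, and OSBP was found as a cytosolic receptor for oxysterols, the same class of molecules that activates LXRs. In luteal cells these routes feed a gland whose product, progesterone, is made from cholesterol. STARD4 and OSBPL2 are soluble carriers, whereas STARD3 is anchored in the membrane of late endosomes, so that "cytosolic carrier" describes it only in part.

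All levels are log2 RMA values, in which 1 unit is a doubling, and treatment differences are taken between arrays for the same probe set. Levels of different probe sets were set side by side only to name brighter and dimmer ones, to mark dim signal and to summarize lists of genes. Differences in level between genes were not read as amounts of RNA. The 6 arrays had median levels of 5.54 to 5.71. A level of 4.63, the 95th percentile of the mean levels of the Bacillus control probe sets, served as the reference for dim signal. All 6 measured luteal markers, STAR, HSD3B2, FDX1, INHA, NR5A1 and CYP19A1, lay above it, while CYP11A1, LHCGR, HSD3B1 and SCARB1 were not analysed here. The median level of 11 macrophage markers stood above that reference on every array, and all 11 had means above it. So did 12264 of 14132 named genes, each read by its brightest probe set. A place above the reference thus says little about which cells were present, and the cultures may have held RNA of other cells. In these bulk samples, fewer cells of a type and less RNA per cell cannot be told apart. The difference between the 3′ and 5′ ends of 3 control transcripts, a sign of RNA quality, averaged 0.69 to 1.30 with T0901317 and 0.76 to 1.89 with DMSO, with the highest value on the DMSO array of replicate 3.

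None of the 9 probe sets passed the test for a change with T0901317. In limma's fit over all probe sets, 0 of 9 passed an adjusted p of 0.05, beside 0.0853% of all probe sets (45 of 52766). The count over all probe sets was 72 without replicate 2, 328 without replicate 3, 3 with the block by duplicateCorrelation and 0 without the replicate block, with 0 of the 9 carriers each time. At an unadjusted p under 0.05 there were also 0 of 9, beside 3.72% of all probe sets. The lowest unadjusted p among the 9 was 0.069, and every adjusted p was 1.00. The 95% intervals of the 9 fold changes, not adjusted for their number, lay between 0.702 and 1.42. The smallest change that passed anywhere on the array was 0.47 in size on the log2 scale. The same arrays did show a response of known LXR targets. MYLIP, a ubiquitin ligase that degrades lipoprotein receptors, had levels of 9.99, 10.05 and 10.68 with T0901317, against 7.50, 8.01 and 8.03 with DMSO, in replicates 1, 2 and 3. SREBF1, a transcription factor of lipid synthesis, and NR1H3, which encodes LXR alpha, rose by 1.49 ± 0.14 and 1.24 ± 0.11 log2 units (SE from limma over 3 pairs). The groups of NR1H3 overlapped, at 7.40 to 8.71 with T0901317 and 5.98 to 7.68 with DMSO, and its treated arrays were higher in 3 of 3 pairs. ABCA1, an exporter of cholesterol from the cell, had a difference of 0.47 ± 0.13 that did not pass (limma's adjusted p = 0.88); the gene number its annotation gives is missing from the current gene table.

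**Figure D1:**
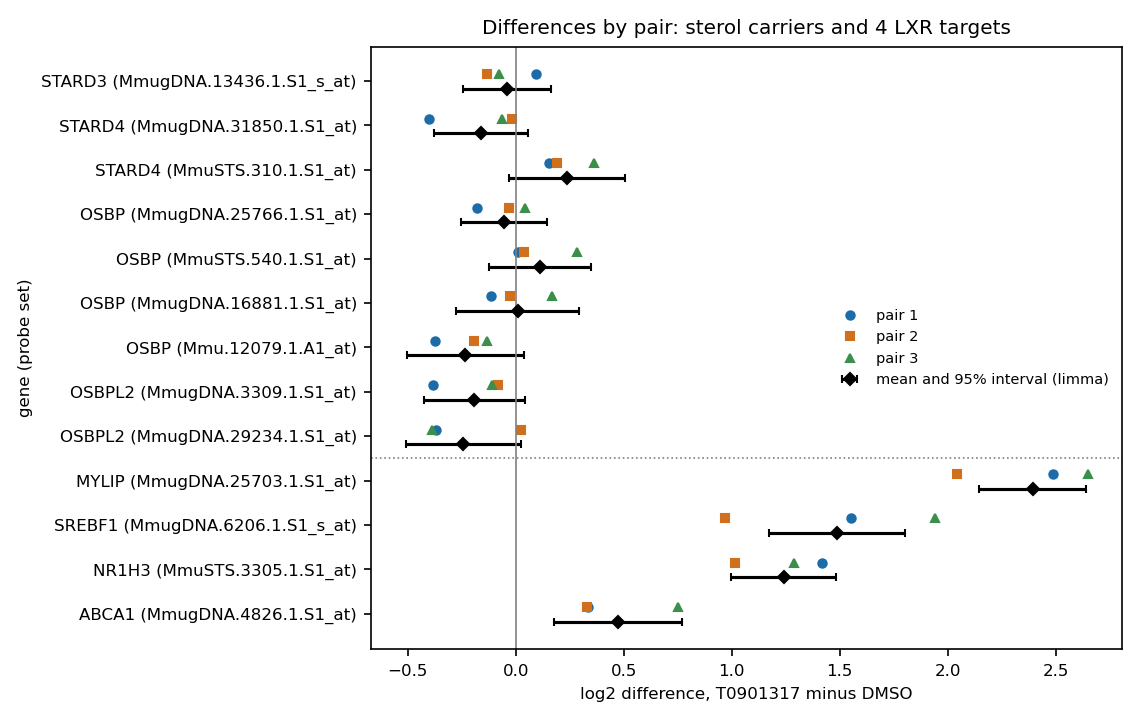
Log2 differences, T0901317 minus DMSO (horizontal axis), for the 9 sterol carrier probe sets and, below the dotted line, 4 LXR targets (vertical axis). Coloured symbols are the 3 pairs, and black diamonds are means with 95% intervals from limma. All 9 intervals of the carriers include 0, while those of MYLIP, SREBF1, NR1H3 and ABCA1 lie above it.

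STARD4 is a small soluble protein that shuttles cholesterol to the endoplasmic reticulum and the endocytic recycling compartment. Its brighter probe set (MmugDNA.31850.1.S1_at) had levels of 9.33, 8.31 and 9.25 with T0901317, against 9.74, 8.33 and 9.31 with DMSO, in replicates 1, 2 and 3. All 3 treated arrays lay below their own vehicle array, but the groups overlapped widely, and replicate 2 was the lowest in both. The difference was -0.16 ± 0.10 (limma's SE, n = 3 pairs; 95% interval -0.38 to 0.06; adjusted p = 1.00). Pair 1 had -0.40, while pair 2 had -0.02 and pair 3 had -0.06. Without replicate 1 the difference was -0.04. The DMSO levels ran over 1.41, a span several times the difference between treatments.

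The dimmer STARD4 probe set (MmuSTS.310.1.S1_at) pointed the other way. Its levels were 4.41, 3.73 and 4.02 with T0901317, against 4.25, 3.54 and 3.66 with DMSO, all 6 below the reference for dim signal. Treated arrays were higher in 3 of 3 pairs, and the difference was 0.24 ± 0.12 (limma's adjusted p = 1.00). Between these STARD4 probe sets the pair differences differed by -0.56, -0.21 and -0.42, brighter minus dimmer. The mean of both gave STARD4 a difference of 0.04 ± 0.10 (limma's adjusted p = 1.00). The sign for STARD4 thus depended on the probe set.

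STARD3, also known as MLN64, holds late endosomes to the endoplasmic reticulum and moves cholesterol at those contacts. Its single probe set (MmugDNA.13436.1.S1_s_at) has a name ending that marks probes shared by several transcripts. Levels were 8.54, 8.65 and 8.72 with T0901317, against 8.45, 8.79 and 8.79 with DMSO, in replicates 1, 2 and 3. The groups overlapped, with the treated array higher in pair 1 and lower in pairs 2 and 3. STARD3 had a difference of -0.04 ± 0.09 and a 95% interval of -0.24 to 0.17 (limma's adjusted p = 1.00). As a fold change that interval runs from 0.845 to 1.12. The treated arrays had an SD of 0.090 and the vehicle arrays one of 0.20. The sign of so small a value was not stable: it was 0.0083 without replicate 2 and 0.0065 after quantile normalization.

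OSBP trades cholesterol from the endoplasmic reticulum for phosphatidylinositol 4-phosphate at the Golgi. Its brightest probe set (MmugDNA.25766.1.S1_at) had levels of 8.58, 8.58 and 9.33 with T0901317, against 8.76, 8.61 and 9.29 with DMSO, in replicates 1, 2 and 3. Replicate 3 stood highest in both groups, and the groups overlapped. The difference was -0.06 ± 0.09 (limma's adjusted p = 1.00), with -0.18, -0.03 and 0.04 in the pairs, and it was 0.0057 without replicate 1. The 95% interval of the OSBP fold change ran from 0.838 to 1.10 on this probe set.

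The next OSBP probe set (MmuSTS.540.1.S1_at) had levels of 7.39, 7.41 and 7.65 with T0901317, against 7.38, 7.37 and 7.37 with DMSO. These groups did not overlap, since the vehicle arrays lay within 0.010 of each other, and the treated array of replicate 3 stood apart upward. OSBP had a difference of 0.11 ± 0.11 here (limma's adjusted p = 1.00), of which pair 3 gave 0.28 and pairs 1 and 2 gave 0.01 and 0.04. Pair 3 was also the pair in which the 3′ to 5′ difference of the controls differed most, being 0.59 lower with T0901317. The part of RNA quality in this value was not tested pair by pair; with that measure as a covariate the difference was 0.05 ± 0.10.

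The other two OSBP probe sets were dim. MmugDNA.16881.1.S1_at had levels of 4.72, 5.13 and 4.54 with T0901317, against 4.84, 5.16 and 4.38 with DMSO, around the reference for dim signal, with a difference of 0.0091 ± 0.13. The dimmest of the 4 had levels of 3.66, 3.89 and 3.77 with T0901317, against 4.03, 4.08 and 3.90 with DMSO, and lay below that reference on every array. The groups of this dimmest probe set did not overlap, and the treated arrays were lower, with a difference of -0.23 ± 0.12 (limma's adjusted p = 1.00). The OSBP probe sets thus held the 2 of 9 whose groups did not overlap, 1 higher and 1 lower with T0901317, beside 2.45% of all probe sets with groups that do not overlap.

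OSBPL2 delivers cholesterol to the plasma membrane in exchange for a phosphoinositide and is also found on lipid droplets. Its brighter probe set (MmugDNA.3309.1.S1_at) had levels of 7.36, 7.85 and 7.58 with T0901317, against 7.74, 7.93 and 7.69 with DMSO, in replicates 1, 2 and 3. Every treated array lay below its own vehicle array, and the groups overlapped. The difference was -0.19 ± 0.11 (95% interval -0.43 to 0.04; limma's adjusted p = 1.00), with -0.38, -0.08 and -0.11 in the pairs. Without replicate 1 it was -0.10.

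The other OSBPL2 probe set (MmugDNA.29234.1.S1_at) had levels of 6.82, 6.92 and 6.51 with T0901317, against 7.19, 6.90 and 6.90 with DMSO. The groups overlapped, with differences of -0.37 and -0.39 in pairs 1 and 3 and of 0.02 in pair 2. OSBPL2 had a difference of -0.24 ± 0.12 here (95% interval -0.51 to 0.02; limma's adjusted p = 1.00), with the lowest unadjusted p of the 9, 0.069. Of the 3 genes with several probe sets, OSBPL2 was the only one with the same sign on all of them, and the mean of both gave -0.22 ± 0.10 (limma's unadjusted p = 0.041; adjusted p = 0.99 over named genes). In fold terms the 95% intervals ran from 0.745 to 1.03 and from 0.702 to 1.02.

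**Figure D2:**
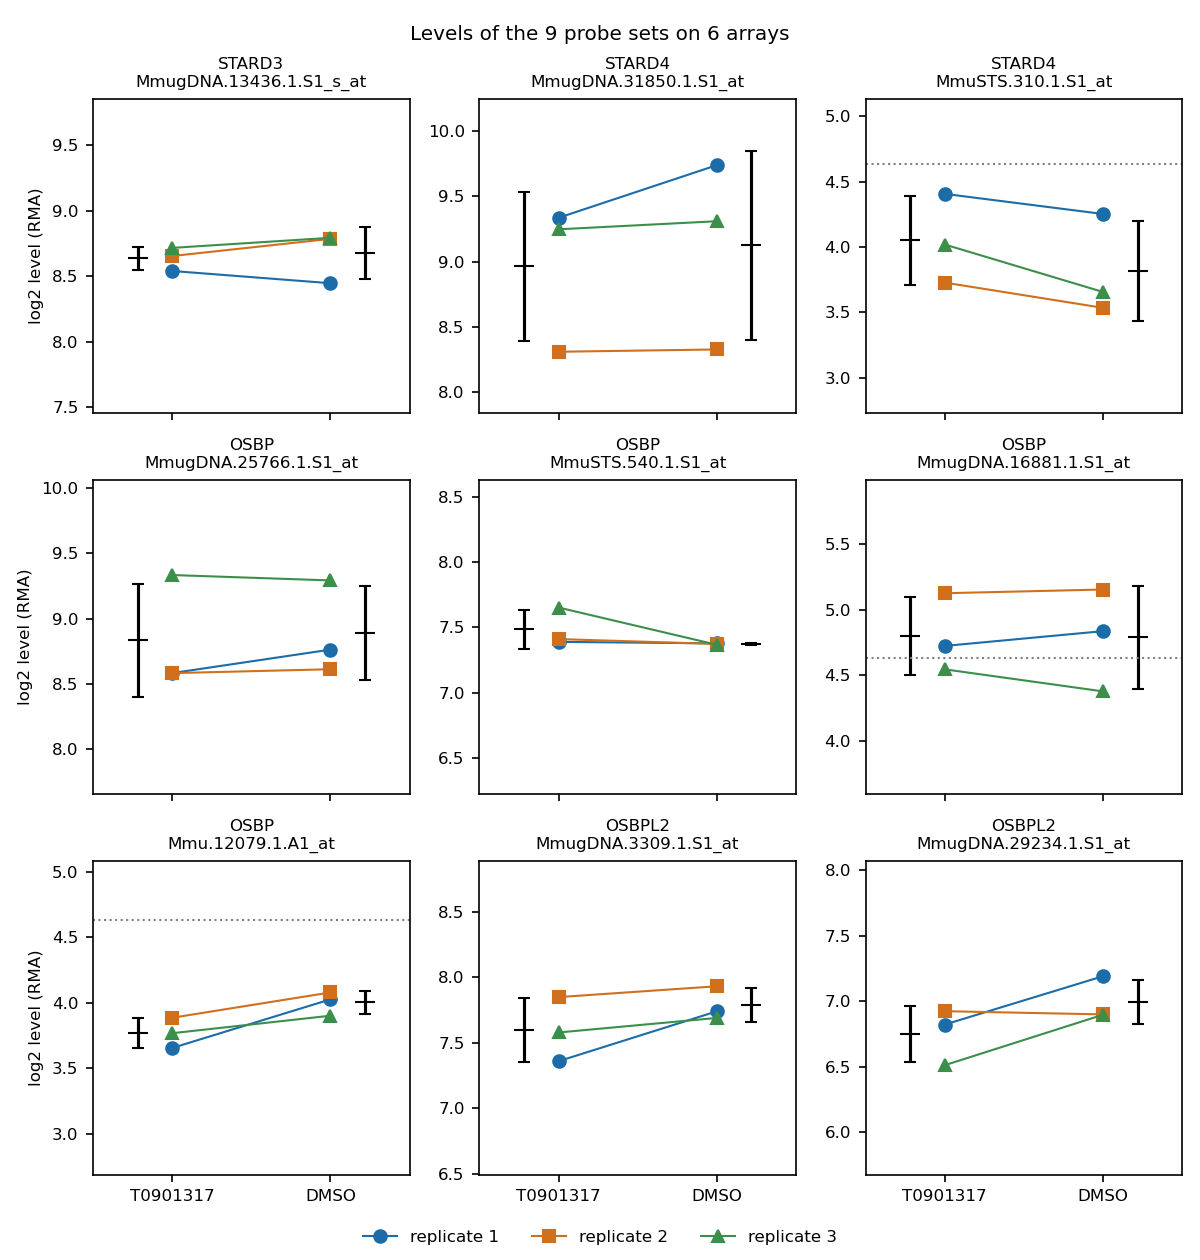
Log2 levels (vertical axis, the same span in every panel) of the 9 probe sets on the T0901317 and DMSO arrays (horizontal axis). Lines join the arrays of a replicate, black bars beside them are means with SD (n = 3), and dotted lines mark the reference for dim signal, 4.63. Replicate 2 lies lowest for STARD4 and replicate 3 highest for the brightest OSBP probe set in both groups.

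The pair signs of the members mixed as well. Differences lay below 0 for 6 of the 9 probe sets and above 0 for 3. Of 14132 named genes, each read by its brightest probe set, 8286 lay below 0 and 5846 above it. Treated arrays were lower in all 3 pairs for 3 probe sets, 1 each of STARD4, OSBP and OSBPL2, beside 11.1% of all probe sets. They were higher in all 3 pairs for 2 probe sets, 1 of STARD4 and 1 of OSBP, beside 12.0% of all. STARD4 and OSBP thus supplied both signs. The STARD4 probe set that was higher and the OSBP probe set that was lower in all 3 pairs lay below the reference for dim signal on every array. The 9 probe sets of 4 genes are also not independent.

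No other measured member of either protein family passed. Among named genes, each read by its brightest probe set, 0.177% passed (25 of 14132), and the median difference was -0.02. For the START family 15 of 17 listed names were measured, 0 rose, 0 fell and 15 did not pass, with a median of -0.07, or -0.015 without replicate 1. The largest values were those of STARD5, a soluble carrier close to STARD4, at 0.22 ± 0.13, and STARD6, at 0.21 ± 0.13 and below the reference for dim signal. STARD5 had 0.03, 0.11 and 0.51 in pairs 1, 2 and 3, so pair 3 gave most of it. STAR had -0.28, -0.03 and 0.05 in the pairs. STARD3NL, which lacks a START domain but shares the anchor of STARD3, had -0.09 ± 0.09.

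Of the oxysterol-binding proteins, 9 of 12 were measured, 0 rose, 0 fell and 9 did not pass, with a median of -0.03 that became 0.06 without replicate 1. OSBPL8, which tethers the endoplasmic reticulum to the plasma membrane and moves phosphatidylserine, had 0.15 ± 0.08, and was higher with T0901317 in 3 of 3 pairs (limma's adjusted p = 1.00). Another probe set of OSBPL8 (MmuSTS.541.1.S1_at) had 0.30 ± 0.12, also higher in 3 of 3 pairs (limma's unadjusted p = 0.029; adjusted p = 1.00), while its remaining 2 had -0.11 and -0.04. On brightest probe sets OSBPL2, at -0.19, had the value of this family farthest from 0; over all of the family's probe sets that was the 0.30 of OSBPL8.

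The partners of these carriers at membrane contacts were read next, among them lipid kinases that make the phosphatidylinositol 4-phosphate OSBP uses. Of 19 listed names 14 were measured, 0 rose, 0 fell and 14 did not pass, with a median of -0.08, or -0.013 without replicate 1 and -0.11 without replicate 3. VAPA and VAPB, the anchors that STARD3 and OSBP bind on the endoplasmic reticulum, were not analysed here. PI4K2B, a kinase of the type named above, had -0.25 ± 0.13, with -0.28, 0.09 and -0.55 in the pairs. PLEKHA3, a Golgi protein that binds its product, had -0.16 ± 0.12. MOSPD2, another endoplasmic reticulum anchor for STARD3, had 0.13 ± 0.11.

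Other proteins of sterol movement and storage included 11 measured of 17, with 0 that rose, 0 that fell and a median of -0.07, or -0.041 without replicate 2. TMEM97, an endoplasmic reticulum protein that limits NPC1, had -0.24 ± 0.08 and LIPA, the lysosomal lipase that frees cholesterol from its esters, had -0.23 ± 0.07. Both were lower with T0901317 in 3 of 3 pairs, with unadjusted p of 0.017 and 0.0099, and neither passed (limma's adjusted p = 1.00 for both). NPC1 and NPC2, which hand cholesterol out of lysosomes, had 0.05 ± 0.09 and -0.09 ± 0.06.

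**Figure D3:**
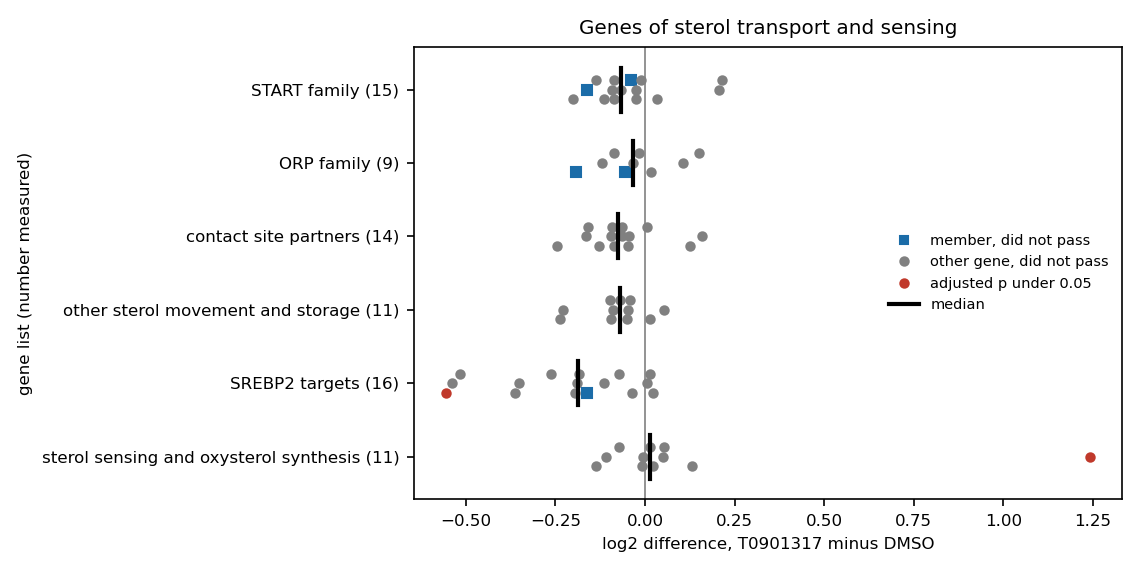
Differences in log2 level between T0901317 and DMSO (horizontal axis, positive where T0901317 is higher) for the measured genes of 6 lists of sterol transport and sensing (vertical axis). Blue squares are STARD3, STARD4, OSBP and OSBPL2, red circles passed an adjusted p of 0.05 and black bars are medians. The red circles are FDFT1, at -0.55, and NR1H3, at 1.24, and no carrier is red.

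STARD4 is also known as a target of SREBP2, the transcription factor that cells activate when sterols in the endoplasmic reticulum run low, so it was set beside other genes of that programme. Of 25 listed genes 16 were measured, 0 rose, 1 fell and 15 did not pass, with a median of -0.19, or -0.08 without replicate 1. The gene that fell was FDFT1, which makes squalene, by 0.55 ± 0.08 on the log2 scale (limma's adjusted p = 0.028); 0 of the 16 fell without replicate 1, and in 6 of the 11 other settings in all, among them the block by duplicateCorrelation (adjusted p = 1.00). The count was 2 without replicate 2, with SQLE, 3 without replicate 3, with CYP51A1 and HSD17B7, and 4 with the RNA quality covariate, with CYP51A1, HSD17B7 and EBP, all enzymes of sterol synthesis. Of the 15 others in the list, 9 had a lower difference than STARD4 and 6 a higher one. Whether STARD4 differed from them was not tested. STARD4 shared with most of them the pair of the lowest difference. It was pair 1 for STARD4 and for 13 of the 15, and for 45.9% of all named genes. The median difference over all named genes was -0.067 in pair 1, -0.014 in pair 2 and 0.014 in pair 3. INSIG1, which holds the SREBP complex back, had 0.02 ± 0.07.

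Over the replicates, STARD4 shared its highest arrays with most of the list, but its lowest with few. In both groups STARD4 was highest in replicate 1, as were 13 of the 15 others in the list, beside 19.6% of all named genes. STARD4 was lowest in replicate 2 in both groups, which held for 3 of the 15, INSIG1, MVD and TM7SF2, beside 18.2% of all named genes. SQLE, an oxygenase of sterol synthesis, had 10.10, 8.78 and 7.63 with T0901317, against 10.56, 8.99 and 8.59 with DMSO, in replicates 1, 2 and 3. Its arrays of replicate 3 were thus the lowest, whereas those of STARD4 lay between the other replicates.

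**Figure D4:**
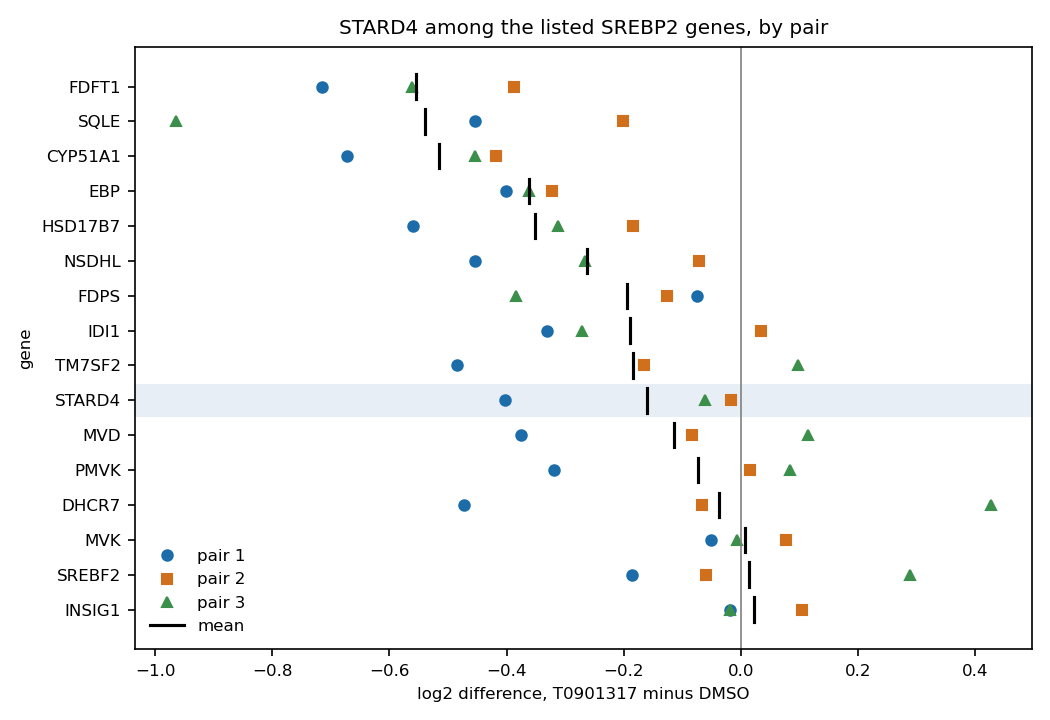
Log2 differences, T0901317 minus DMSO (horizontal axis), of STARD4 and 15 other SREBP2 genes (vertical axis), ordered by their mean. Symbols are the 3 pairs and black bars are means, and the shaded row is STARD4. Pair 1 has the lowest value for STARD4 and for 13 of the other genes. Among these, INSIG1 has -0.0189 in pair 1 and -0.0187 in pair 3, which cannot be told apart here.

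Genes that sense sterols or make oxysterols, the ligands of OSBP and of LXRs, were measured for 11 of 16 names. NR1H3 rose, 0 fell and 10 did not pass, with a median of 0.01, or -0.015 to 0.052 over the other settings. NR1H3 did not pass with the block by duplicateCorrelation (limma's unadjusted p = 4.5e-04; adjusted p = 1.00) or without the replicate block (adjusted p = 1.00), and passed in the other 9 settings. NR1H2, which encodes LXR beta, had -0.07 ± 0.10, and CH25H, the enzyme that makes 25-hydroxycholesterol, had -0.14 ± 0.12. Counting each gene of these 6 lists once and leaving out the 4 carriers, 1 of 67 rose, 1 fell and 65 did not pass; with the block by duplicateCorrelation 0 rose and 0 fell.

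The named genes most like each carrier across arrays were found by the root mean square difference between profiles over the 6 arrays, each centred on its own mean, among 11385 others above the reference for dim signal. For STARD4 they were LHX9, KIF21A and LGALS3BP, at 0.092, 0.094 and 0.094 on the log2 scale, where the profile of STARD4 spanned 1.43. LHX9 is a transcription factor of the developing gonad, KIF21A a kinesin motor and LGALS3BP a secreted glycoprotein. For OSBP they were PDRG1, ANKMY2 and SERPINH1, at 0.032, 0.040 and 0.051 over a span of 0.75. For OSBPL2 they were YIPF1, RABGEF1 and MPV17, at 0.034, 0.034 and 0.035 over a span of 0.57. For STARD3 they were FMO4, DEFB1 and ZNF597, at 0.031, 0.033 and 0.040 over a span of 0.35. None of these 12 genes belongs to the 6 lists, none passed for treatment, and the 6 arrays come from only 3 replicates.

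Markers of other cells gave these values beside the carriers. None of the measured markers passed; without replicate 3, 1 blood cell marker did, the platelet chemokine PPBP, at -0.74 ± 0.17 (limma's adjusted p = 0.0046). The median difference was 0.20 for 11 endothelial markers, -0.24 for 4 of pericytes and smooth muscle, -0.06 for 9 of fibroblasts, -0.01 for 11 of macrophages, -0.19 for 3 of T and NK cells and -0.20 for 7 of blood cells. For the 6 luteal markers it was -0.13. Several of these medians moved when 1 replicate was left out. That of the endothelial markers was 0.082 without replicate 3 and 0.095 with the RNA quality covariate, and that of the blood cell markers was -0.063 without replicate 1, -0.36 without replicate 2 and -0.093 without replicate 3. Leaving out replicate 2 gave -0.038 for fibroblast and 0.042 for macrophage markers. Leaving out replicate 3 gave -0.11 for the fibroblast list, and leaving out replicate 1 gave -0.13 for T and NK cells and 0.041 for macrophages. The summed level of the luteal markers, the log2 of their summed linear levels, ran from 12.03 to 12.55 with T0901317 and from 12.03 to 12.52 with DMSO, and that of the macrophage markers from 11.71 to 12.99 with T0901317 and from 11.85 to 13.09 with DMSO. In both groups replicate 1 had the lowest macrophage sum, and replicate 2 the highest luteal sum, where STARD4 was lowest. A sum of linear levels leans on the brightest markers, and the median level of the same 6 luteal markers gave another order. That median was highest in replicate 1 in both groups, as STARD4 was. It was lowest in replicate 2 with DMSO and, with T0901317, in replicate 3, close to replicate 2. The part of cell makeup in the differences between replicates was not tested.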

How the data were processed

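Per the submitters' processing notes, the deposited log2 values were made with RMA, version not stated. That they are log2 was read from their range, 1.81 to 14.7. Whether all 6 arrays were processed together is not stated. Array names come from the labels. From 52865 probe sets, 99 controls were left out. Gene names came from the platform annotation, and current RefSeq gene numbers changed 0 symbols. The array's build is not stated, so no coordinates are given. Each gene was read by its brightest probe set (mean over 6 arrays).

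T0901317 minus DMSO was fitted with limma 3.58.1 in R 4.3.3 across all 52766 probe sets, with the replicate number as a block and a variance trend, two-sided, with Benjamini-Hochberg adjustment over all of them and a threshold of 0.05. The pairing comes from the design text; same-numbered arrays deviated together (correlations 0.658, 0.813 and 0.830). With 3 pairs, an exact sign-flip test reaches no p below 0.25. The number of arrays limits the precision. On simulated data the fit recovered 10 of 67 changes of 0.5 log2 units, 65 of 67 of 1 and 66 of 66 of 2. The simulated noise followed the fit's own assumptions, so recovery on the real arrays may differ. Of 154 calls there, 13 were false. The members and lists were chosen with earlier results of these data known. Genes named were the carriers, from each list those that passed or else the 2 of largest change, 4 LXR targets and the 3 nearest profiles; the others (STAR, STARD3NL, MOSPD2, NPC1, NPC2, SQLE, INSIG1, MVD, TM7SF2, CYP51A1, HSD17B7, EBP, NR1H2, CH25H and PPBP) were chosen after their values were seen. Alternatives were 10 planned settings, a mean over probe sets, and a block by duplicateCorrelation chosen after seeing the data.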

Additional observations from a re-analysis of the deposited data

How the results depend on the processing

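None of the 9 carrier probe sets passed under any of the 11 other settings tried (limma; the filter on dim signal kept 7 of the 9), and their lowest adjusted p was 0.50, with RNA quality as a covariate; 0 to 2 of them had an unadjusted p under 0.05. The count over all 52766 probe sets moved more. It was 45, and 0 without the replicate block (143 at an unadjusted p under 0.05), 27 after quantile normalization, 27 with cyclic loess, 11 without a variance trend, 206 with the RNA quality covariate and replicate block and 3 with the block by duplicateCorrelation. It ran from 35 to 328 when 1 replicate was left out, and the cause was not tested. Those fits held 2 pairs. Their variances, and those of the fit with the RNA quality covariate, came mostly from other probe sets. The paired fit with the replicate block was the one reported, and no carrier passed without it. Signs turned for values near 0: STARD3 had 0.0083 without replicate 2 and 0.0065 after quantile normalization, and OSBP (MmugDNA.25766.1.S1_at) had 0.0057 without replicate 1. OSBP (MmugDNA.16881.1.S1_at) had -0.071 to 0.070 when 1 replicate was left out, -0.033 with quantile normalization, -0.032 with cyclic loess, -0.014 with arrays centred on their medians and -0.053 with the RNA quality covariate. STARD4 had 0.038 as the mean of its probe sets. Both OSBPL2 probe sets stayed below 0 in 11 of 11 settings, from -0.25 to -0.10 and from -0.38 to -0.17.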
